A study of Mus musculus with 130 samples.

Results

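Swiss-derived and Castle/Bagg-derived inbred mouse strains are 2 of the old laboratory lineages: the first trace to Swiss albino stock, the second to the colonies and fancy mice from which BALB/c, A, C3H, CBA and DBA mice were bred. The 14 strains compared here were chosen by strain name from a series of 130 liver samples, most of which form a panel of 114 strains. The Swiss-derived group held 7 strains (SJL/J, SWR/J, FVB/NJ, BUB/BnJ, NOD/ShiLtJ, NON/ShiLtJ and NOR/LtJ), and the Castle/Bagg group held 7 (A/J, BALB/cJ, BALB/cByJ, SEA/GnJ, C3H/HeJ, CBA/J and DBA/2J). Every animal was male and, per the labels, came from the same feeding scheme, 4 weeks of chow and then 6 weeks of 2% carbonyl iron (20000 ppm), so both groups were iron loaded and neither served as an untreated control. Each strain was 1 mouse and 1 mRNA library, made from part of the large lobe. The labels record no age at sampling, batch or date.

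The replicate is therefore the strain, and each test sets the difference between lineages against the spread between strains within a lineage. That spread joins genotype with everything particular to 1 mouse. Some strains are close relatives: BALB/cJ and BALB/cByJ are substrains, NOR/LtJ carries mostly NOD genome, and C3H/HeJ and CBA/J share ancestors, so 7 strains a group count as fewer than 7 independent samples and the p-values are too small to that extent.

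The liver stores dietary iron and sets how much of it enters the blood. Endothelial cells of the liver release Bmp6 as iron rises, hepatocytes respond with the hormone hepcidin (Hamp), and hepcidin closes the iron exporter ferroportin (Slc40a1). Heme oxygenase 1 (Hmox1) frees iron from heme, ferritin (Fth1, Ftl1) stores it, and metallothioneins bind zinc and copper.

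Library totals ran from 10.95 to 13.44 M (M for mega) expected counts in the Swiss-derived strains and from 10.5 to 12.7 M in the Castle/Bagg strains. Summed hepatocyte marker levels ran from 115146 to 227844 CPM (counts per M counts, scaled with TMM factors) and from 119904 to 193272 CPM, and the exocrine pancreas markers reached 105 CPM in BALB/cJ against 4.57 to 17.5 CPM in the other 13 livers. On the first principal component of log2 CPM, which held 22.5% of the variance, 6 Swiss-derived strains scored from 18.4 to 46.5 and SWR/J scored -23.1. Of the Castle/Bagg strains, 6 scored from -52.2 to -6.48 and BALB/cJ scored 11.001. SWR/J thus stood apart from its own group, and the transcripts of the daily clock stood apart in NOD/ShiLtJ and NON/ShiLtJ, below called the ShiLtJ strains. Of 89 called genes chosen for description, 88 were still called by edgeR without SWR/J, the exception being Ifih1 (adjusted p = 0.0518). Only 21 of the 89 were still called without the ShiLtJ strains: Cldn34c1, Coq10b, Cox6c, Efnb2, Etnk2, Gstt2, H2-T22, H2-T23, Marco, Mrpl38, Mrps7, Ndrg1, Ndufa4l2, Ndufaf1, Olfr107, Ppp1r1b, Sdhd, Slc1a4, Spc24, Tspan32 and Vwf. The other 68 had edgeR adjusted p from 0.0532 to 0.162 in that fit, with the direction of the log2 difference kept.

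**Figure D1:**
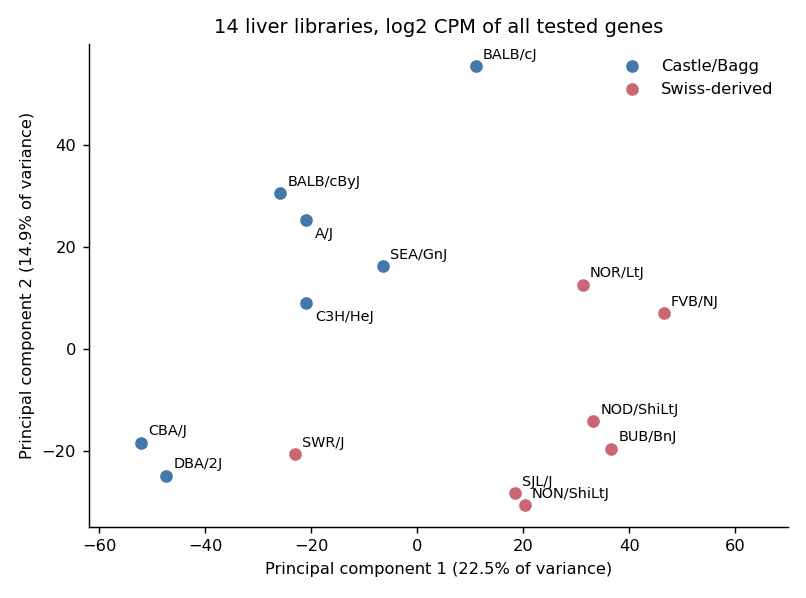
Principal components 1 (x axis, 22.5% of the variance) and 2 (y axis, 14.9%) of log2 CPM over all tested genes, 1 point per strain, blue for Castle/Bagg and red for Swiss-derived. SWR/J lies at -23.1 on the x axis, among the Castle/Bagg strains, and BALB/cJ at 11.001 has the highest score on the y axis.

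Of 12910 genes with enough counts to test, 688 differed between the lineages at an adjusted p under 0.05 in edgeR's quasi-likelihood test, a share of 5.33%. Swiss-derived strains had the higher level for 310 of them (2.4% of genes tested) and the lower level for the rest (2.93%). The difference exceeded 2-fold for 133 of the higher and 82 of the lower genes. In 133 of the 688, the 7 values of one group did not overlap those of the other, against 148 of all 12910 genes (1.15%), which were 57 with the Swiss-derived strains higher (0.442%) and 91 with them lower (0.705%). At an unadjusted p under 0.05 in edgeR there were 3120 of the 12910 genes, and 2467 of 13164 without the ShiLtJ strains. DESeq2 called 1530 of the 12910, and limma on log2(TPM + 1) called 93. The list counts below are to be read beside these. The count of 688 changed with the strains in it. It was 1442 without SWR/J, 228 without BALB/cByJ, 284 to 444 without any 1 of BUB/BnJ, NON/ShiLtJ, CBA/J, NOD/ShiLtJ, SJL/J, DBA/2J, C3H/HeJ or FVB/NJ, and 55 without NOD/ShiLtJ and NON/ShiLtJ.

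Ndufa4l2, which encodes a protein related to a respiratory chain subunit and is switched on when oxygen is short, showed the largest rise among protein-coding genes at 1 CPM or more whose groups did not overlap. Its level in the Swiss-derived strains ran from 1.42 CPM (SWR/J) through a median of 18.3 to 57.4 CPM (NOD/ShiLtJ). In the Castle/Bagg strains it ran from 0.359 CPM (C3H/HeJ) through 0.690 to 1.09 CPM (CBA/J). SWR/J lay just above the highest Castle/Bagg strain, and the other 6 Swiss-derived strains lay at 5.64 CPM or more. The fitted difference was 5.03 ± 0.69 on the log2 scale (SE, 7 strains a group), or 32.6-fold (edgeR adjusted p = 0.00314). It remained called with each strain left out in turn and without NOD/ShiLtJ and NON/ShiLtJ (adjusted p = 0.00646).

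Ndufa4l2 belongs to a list of genes induced by low oxygen, which was written after the values had been seen and whose leading members prompted it. Of its 32 tested members, 11 were higher in the Swiss-derived strains and none lower (11 of 32 against 2.4% of all genes called higher), and the median log2 difference was 0.85 against 0.0027 over all genes. Besides Ndufa4l2, the called members were Adm (adrenomedullin, 1.94), Cited2 (2.09), Ddit4 (3.74), Hk1 (1.29), Kdm3a (0.78), Mxi1 (0.48), Ndrg1 (1.82), Pfkl (1.36), Slc16a3 (a lactate carrier, 2.23) and Slc2a3 (a glucose carrier, 2.41), with log2 differences in brackets. The list was not uniform: Vegfa, the vascular growth factor, gave 0.38 ± 0.23 (SE; edgeR adjusted p = 0.322), and Pfkfb4 gave -0.90 without passing the test. The number called was 20 without SWR/J, 4 without BALB/cByJ, and 5 without BUB/BnJ or without NOD/ShiLtJ. It was 2 without NOD/ShiLtJ and NON/ShiLtJ, while the list's median was 0.84 then. With all 14 strains it was 2 in limma on log2(TPM + 1). Cited2, Slc2a3 and Slc16a3 lost their calls in 11, 12 and 7 of the 14 fits that left out 1 strain. Ndufa4l2, Adm, Slc16a3 and Slc2a3 averaged 0.716, 0.891, 0.575 and 0.938 CPM in the Castle/Bagg strains. They could thus pass the filter on low counts through the group in which they were high. With at least 10 counts required in every library, edgeR called 11 of 27 tested members higher, against 341 of 11269 genes.

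The strains did not share 1 order within this list. Ddit4, an inhibitor of mTOR signalling, reached 195 CPM in NOR/LtJ and 145 CPM in FVB/NJ, was 59.6 CPM in NOD/ShiLtJ, and stood at 4.34 CPM in both SJL/J and SWR/J. Castle/Bagg strains had between 2.55 and 7.74 CPM of it, so SJL/J and SWR/J lay inside their range. Ndrg1, which responds to low oxygen and to iron shortage in cultured cells, was 84.3 CPM in NOD/ShiLtJ and between 11.8 and 22.9 CPM in the other Swiss-derived strains. All 7 lay above the Castle/Bagg range of 6.10 to 9.49 CPM, SWR/J included. Ddit4 lost its call without BALB/cByJ (edgeR adjusted p = 0.0557) and without the ShiLtJ strains (0.063), and Ndrg1 kept its call with each strain left out. In the fit without the ShiLtJ strains, Adm had an adjusted p of 0.0599, Slc2a3 0.0819, Cited2 0.0966 and Slc16a3 0.12.

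The stretch upstream of Ddit4 is shown because the gene had one of the largest differences of the list, and it holds the core letters ACGTG or GCGTG bound by oxygen-sensing factors. The bases before the annotated start are chr10:59951835-59952020 of GRCm38.p6, minus strand, from RefSeq, printed 5′ to 3′ with the core letters in capitals.
Ddit4: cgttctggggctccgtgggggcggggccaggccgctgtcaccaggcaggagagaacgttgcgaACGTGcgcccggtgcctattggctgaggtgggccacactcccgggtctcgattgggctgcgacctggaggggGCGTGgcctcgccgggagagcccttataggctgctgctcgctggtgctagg
The 2 matches begin 123 and 51 bases before the start. Only this motif was marked. The stretch also holds TGCGCCC, unmarked, which overlaps the first match and fits the metal core TGCGCNC searched in Slc30a10 below. Searched on both strands, at least 1 such match is found in the 250 bases upstream of 38.6% of 32851 RefSeq promoters, so a match is common and is given only as a description. Of 4 genes looked up (Slc30a10, Ddit4, Ndufa4l2 and Hmox1), 2 were matched in the promoter table.

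**Figure D2:**
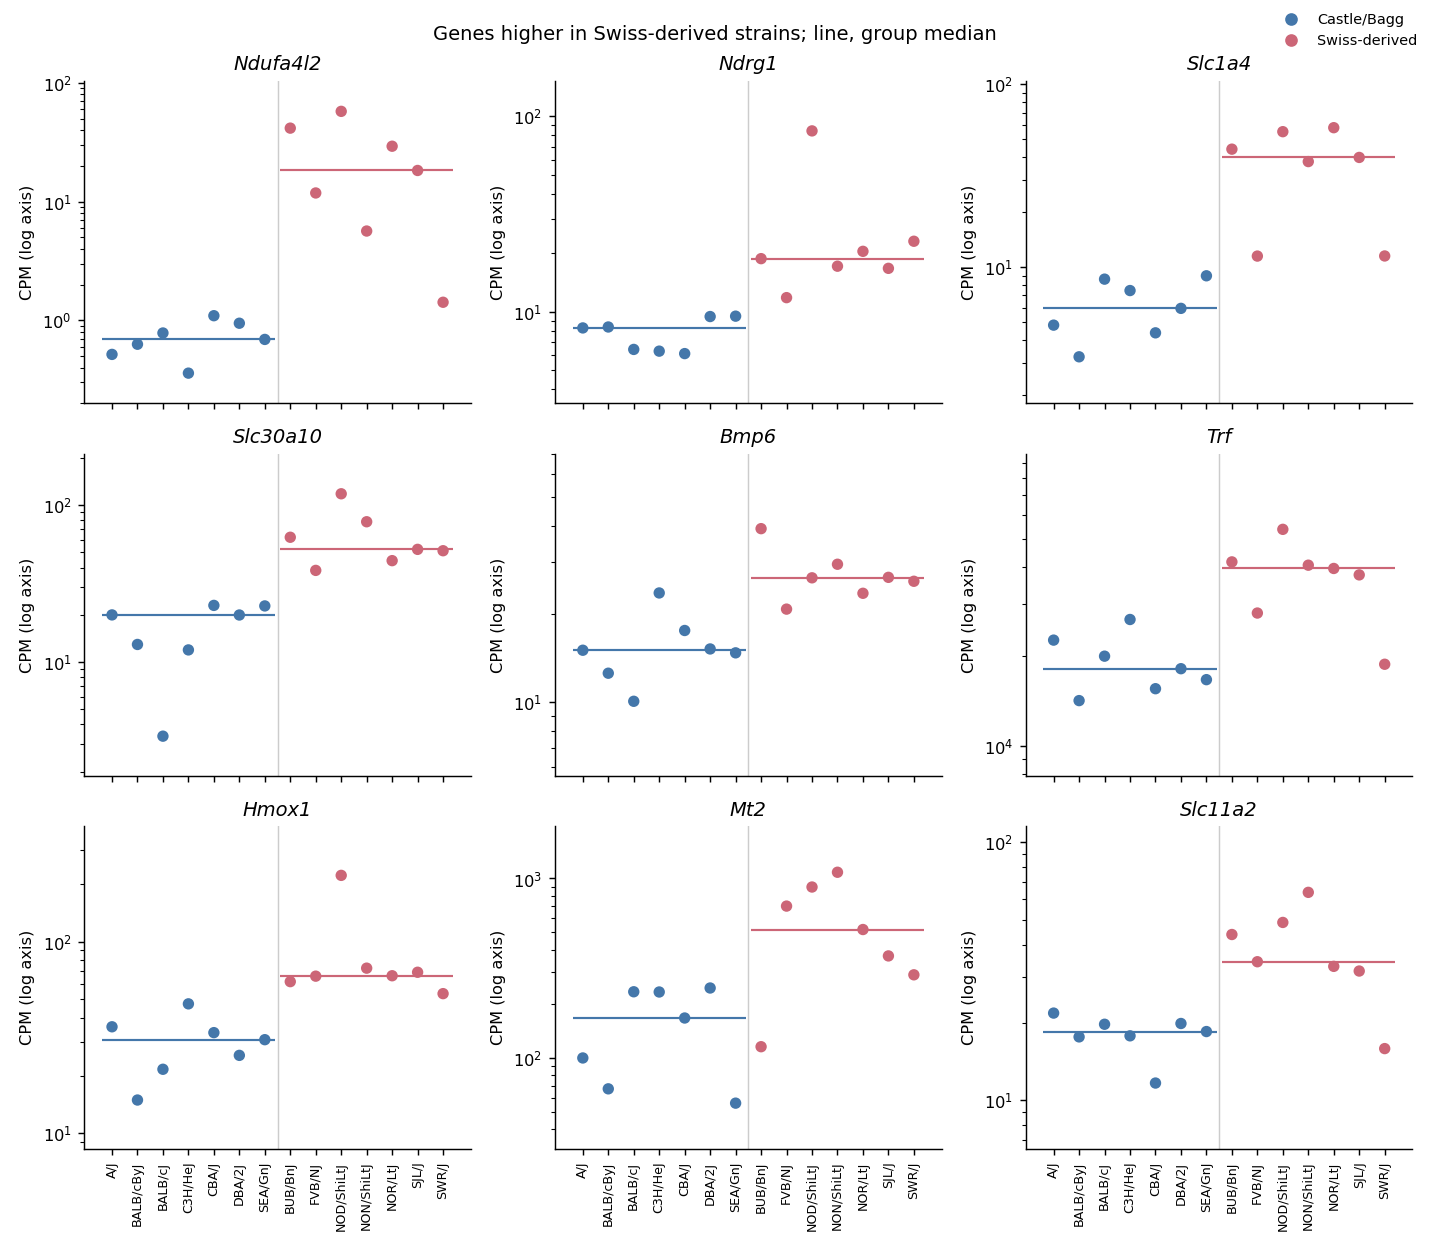
Level in CPM (y axis, log scale, 1 panel per gene) of Ndufa4l2, Ndrg1, Slc1a4, Slc30a10, Bmp6, Trf, Hmox1, Mt2 and Slc11a2 in each of the 14 strains (x axis), with the group median as a line. Ndufa4l2 spans 1.42 to 57.4 CPM in the red Swiss-derived points, and the SWR/J point lies in the blue range for Trf and Slc11a2.

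Among 46 tested iron genes, 4 were higher in the Swiss-derived strains and none was lower, against 2.4% and 2.93% over all genes, and the median log2 difference was 0.11. They were Bmp6, Slc11a2, Trf and Hmox1. The Bmp6 level ran from 20.8 CPM (FVB/NJ) through 26.6 to 39.1 CPM (BUB/BnJ) in Swiss-derived strains and from 10.1 CPM (BALB/cJ) through 15.1 to 23.6 CPM (C3H/HeJ) in Castle/Bagg strains. Overlap came from C3H/HeJ, which exceeded FVB/NJ and NOR/LtJ. The log2 difference was 0.82 ± 0.17 (SE; edgeR adjusted p = 0.0221).

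Hepcidin itself did not pass the test. Hamp ran from 357 CPM (SJL/J) through 944 to 1127 CPM (NOR/LtJ) in the Swiss-derived strains and from 237 CPM (DBA/2J) through 811 to 1101 CPM (C3H/HeJ) in the Castle/Bagg strains. These ranges overlapped almost wholly, and the log2 difference was 0.11 ± 0.29 (SE; edgeR adjusted p = 0.851). Its second copy, Hamp2, stood at 1037 CPM in DBA/2J, where Hamp was lowest, and between 27.3 and 216 CPM in the other 13 strains (log2 difference -1.60 ± 0.66, edgeR adjusted p = 0.151). The 2 copies are near-identical, so reads can be split between them, and how far that moved the 2 levels was not tested. Other parts of the hepcidin pathway were not called either: Hjv gave -0.11, Hfe 0.02, Tfr2 0.15, Tmprss6 -0.19, Id1 0.31 and Bmp2 0.04 as log2 differences. In that branch, 1 of 20 tested genes was called, a share of 5% and near the 5.33% of all genes.

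Among genes for uptake, export and carriage of iron, all 13 tested had positive log2 differences, with a median of 0.60. Of these, 2 were called higher (15.4% against 2.4% of all genes). Slc11a2, the divalent metal transporter DMT1, ran from 15.9 CPM (SWR/J) through 34.4 to 63.9 CPM (NON/ShiLtJ) against 11.7 CPM (CBA/J) through 18.5 to 21.8 CPM (A/J). SWR/J was the 1 Swiss-derived strain inside the Castle/Bagg range, and the log2 difference was 1.10 ± 0.23 (SE; edgeR adjusted p = 0.0236). Trf, the plasma iron carrier, ran from 18826 CPM (SWR/J) through 39653 to 53758 CPM against 14189 CPM through 18186 to 26665 CPM, a log2 difference of 0.96 ± 0.25 (SE; edgeR adjusted p = 0.0388). Again SWR/J alone lay inside the other group's range. The Trf call was lost without any 1 of A/J, BALB/cByJ, CBA/J, DBA/2J, SEA/GnJ, BUB/BnJ, NOD/ShiLtJ, NON/ShiLtJ, NOR/LtJ or SJL/J, at adjusted p up to 0.0796.

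Transferrin receptor, ferroportin and the zinc and iron importer ZIP14 gave values without a call. Tfrc had a log2 difference of 1.34 ± 0.46 (SE; edgeR adjusted p = 0.0927), with FVB/NJ at 111 CPM. Slc40a1 gave 0.34 ± 0.14 (adjusted p = 0.159) and Slc39a14 0.34 ± 0.13 (adjusted p = 0.127). Lcn2, a siderophore-binding protein of acute inflammation, gave 2.36 ± 0.72 (adjusted p = 0.0659) and ranged from 13.7 CPM in SWR/J to 806 CPM in NON/ShiLtJ. Without SWR/J, the list had 8 genes called higher and 2 called lower, among them Tfrc (adjusted p = 0.0337), Lcn2 (0.0207) and, among the lower, Ireb2 (0.0222), which encodes an iron-regulatory protein. Without NOD/ShiLtJ and NON/ShiLtJ, and also without BALB/cByJ and NOR/LtJ, no iron gene was called by edgeR. In these fits 10 and 15 of the 46 had an unadjusted p under 0.05, against 2467 of 13164 and 2670 of 12985 genes. In the first of these fits the adjusted p was 0.0746 for Bmp6, 0.0778 for Slc11a2, 0.0547 for Hmox1 and 0.129 for Trf. With all 14 strains DESeq2 called 8 iron genes and limma on log2(TPM + 1) called 1.

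Heme oxygenase was the iron gene with no overlap between the groups. Hmox1 ran from 53.6 CPM (SWR/J) through 66.4 to 222 CPM (NOD/ShiLtJ) in the Swiss-derived strains and from 14.9 CPM (BALB/cByJ) through 30.8 to 47.4 CPM (C3H/HeJ) in the Castle/Bagg strains. The Swiss-derived values other than NOD/ShiLtJ were close together, at 53.6 to 72.8 CPM. The log2 difference was 1.55 ± 0.33 (SE; edgeR adjusted p = 0.0236) and it held with each strain left out but not without the ShiLtJ strains (adjusted p = 0.0547). Hmox1 is also a target of the oxidative stress factor Nrf2, and on a list of 23 tested Nrf2 targets 1 other gene was called (2 of 23 higher against 2.4% of all genes), G6pdx (0.76, edgeR adjusted p = 0.0272), the first enzyme of the pentose phosphate pathway, which lost its call in 6 of the 14 fits that left out 1 strain and without the ShiLtJ strains (adjusted p = 0.103). That list's median log2 difference was -0.08.

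On a list of metallothioneins and metal transporters, written after values had been seen, 6 of 25 tested genes were higher, Slc11a2 among them, and 1 was lower, against 2.4% and 2.93% of all genes, with a median of 0.02. The counts were 3 higher and 1 lower without CBA/J or without NON/ShiLtJ alone. None was called by edgeR without the ShiLtJ strains, where 7 of the 25 had an unadjusted p under 0.05, against 2467 of 13164 genes. With all 14 strains DESeq2 called 7 and limma on log2(TPM + 1) called 1. Slc30a10, the exporter of manganese, ran from 38.4 CPM (FVB/NJ) through 52.3 to 118 CPM (NOD/ShiLtJ) against 3.36 CPM (BALB/cJ) through 19.9 to 22.95 CPM (CBA/J). The groups did not overlap, SWR/J (51.2 CPM) was high with its group, and the log2 difference was 1.97 ± 0.36 (SE; edgeR adjusted p = 0.0133). It held with each strain left out and was missed without NOD/ShiLtJ and NON/ShiLtJ together (adjusted p = 0.0583).

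The metallothionein Mt2 ran from 115.2 CPM (BUB/BnJ) through 519 to 1083 CPM (NON/ShiLtJ) against 55.8 CPM (SEA/GnJ) through 167 to 245 CPM (DBA/2J). BUB/BnJ was the 1 Swiss-derived strain inside the Castle/Bagg range here. The log2 difference was 1.85 ± 0.47 (SE; edgeR adjusted p = 0.0361), and that of Mt1 was 1.53 ± 0.39 (adjusted p = 0.0381). Both calls were lost without any 1 of A/J, BALB/cByJ, CBA/J, FVB/NJ, NOD/ShiLtJ or NON/ShiLtJ, and that of Mt1 also without DBA/2J, NOR/LtJ or SJL/J, at adjusted p up to 0.0733 for Mt2 and 0.0763 for Mt1, and at 0.148 and 0.154 without the ShiLtJ strains. The copper pump Atp7a (0.74, edgeR adjusted p = 0.0163) and the zinc exporter Slc30a1 (0.44, edgeR adjusted p = 0.0256) were higher, the first with no overlap and the second without a call when CBA/J or NON/ShiLtJ was left out. The zinc importer Slc39a4 was lower (-0.88, edgeR adjusted p = 0.0222). These 3 had adjusted p of 0.0532, 0.0829 and 0.0829 without the ShiLtJ strains.

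Mt1 and Mt2 were also the called members of the acute-phase list, whose proteins the liver makes during inflammation. There, 2 of 20 tested genes (10% against 2.4% of all genes) were higher and none lower. Of the log2 differences 19 were positive, and the median was 0.64. At an unadjusted p under 0.05 in edgeR there were 12, against 3120 of all 12910 genes, and DESeq2 called 7, against 1530. In heme synthesis 1 of 8 tested enzymes was lower and none higher (2.93% of all genes were lower), 6 differences were negative and the median was -0.22. The called enzyme was Urod (-0.31 ± 0.08, SE, edgeR adjusted p = 0.0427), which lost its call in 11 of the 14 fits that left out 1 strain. The numbers called were 4 and 3 without SWR/J. Neither list had a call in edgeR without the ShiLtJ strains, where 5 and 3 genes had an unadjusted p under 0.05, against 2467 of 13164 genes.

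The upstream stretch of Slc30a10 is shown because its groups did not overlap and because metal response elements, with the core TGCGCNC or TGCACNC, are the textbook site of the metal-sensing factor that drives Mt1 and Mt2. The 250 bases before the start are chr1:185454598-185454847 of GRCm38.p6, plus strand, from RefSeq, printed 5′ to 3′ with matches in capitals.
Slc30a10: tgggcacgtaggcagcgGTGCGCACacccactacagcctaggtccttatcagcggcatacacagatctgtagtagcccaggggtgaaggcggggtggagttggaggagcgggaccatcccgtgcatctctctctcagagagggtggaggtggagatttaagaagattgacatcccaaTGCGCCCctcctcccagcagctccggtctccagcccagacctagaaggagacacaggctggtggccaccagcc
There are 3 matches over both strands, beginning 233, 232 and 73 bases before the start. The first 2 overlap, on opposite strands, in the first block of capitals. At least 1 match is found in 21.4% of 32851 promoters and 3 or more in 1.26%. Only the metal cores were marked. Near its first bases the stretch also holds CACGT, unmarked, which is the low-oxygen core ACGTG on the other strand. No binding was measured here.

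On a list of nuclear-encoded subunits of the chain and ATP synthase, written after values had been seen, 27 of 76 tested genes were lower and none was higher (background 2.93% lower), 74 of 76 log2 differences were negative, and the median was -0.35. Cox6c, a subunit of cytochrome c oxidase, ran from 57.99 CPM (BUB/BnJ) through 65.6 to 75.1 CPM (SWR/J) against 75.9 CPM (SEA/GnJ) through 101 to 117 CPM (A/J). The groups were separate by a narrow margin between SWR/J and SEA/GnJ. Its log2 difference was -0.59 ± 0.10 (SE; edgeR adjusted p = 0.00916).

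Sdhd, a membrane anchor of succinate dehydrogenase (-0.52, edgeR adjusted p = 0.0107), Ndufs5 of complex I (-0.52, edgeR adjusted p = 0.0104) and cytochrome c, Cycs (-0.51, edgeR adjusted p = 0.0129), also had groups that did not overlap. Sdhd spanned 95.3 to 128 CPM in the Swiss-derived strains and 138 to 177 CPM in the Castle/Bagg strains. Ndufs5 (adjusted p = 0.0599) and Cycs (0.0548) lost their calls without the ShiLtJ strains. The summed level of the list was 4880 to 6478 CPM with a median of 5690 CPM in the Swiss-derived strains and 6176 to 7911 CPM with a median of 7455 CPM in the Castle/Bagg strains. SWR/J at 6478 CPM was the 1 Swiss-derived strain above the lowest Castle/Bagg strain, SEA/GnJ.

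Proteins of the mitochondrial ribosome, another list written after values had been seen, gave 14 of 79 tested genes lower (17.7% against 2.93% of all genes) and none higher, with a median of -0.25 and 74 negative differences. Mrps7 spanned 23.2 to 29.9 CPM against 34.9 to 42.4 CPM (log2 difference -0.51, edgeR adjusted p = 0.00571), and Mrpl38 spanned 26.1 to 34.5 CPM against 37.005 to 47.9 CPM (-0.51, edgeR adjusted p = 0.0071). Neither had overlapping groups. The numbers called lower in the 2 lists were 46 and 28 without SWR/J, 8 and 3 without BALB/cByJ, 10 and 3 without BUB/BnJ, 15 and 5 without NOD/ShiLtJ, and 2 and 2 without NOD/ShiLtJ and NON/ShiLtJ. The medians were -0.32 and -0.20 in the last case. With all 14 strains, limma on log2(TPM + 1) called 1 and 0 genes of the 2 lists. Transcripts made in mitochondria took 4.81% to 8.59% of counts in the Swiss-derived and 5.15% to 8.31% in the Castle/Bagg strains.

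**Figure D3:**
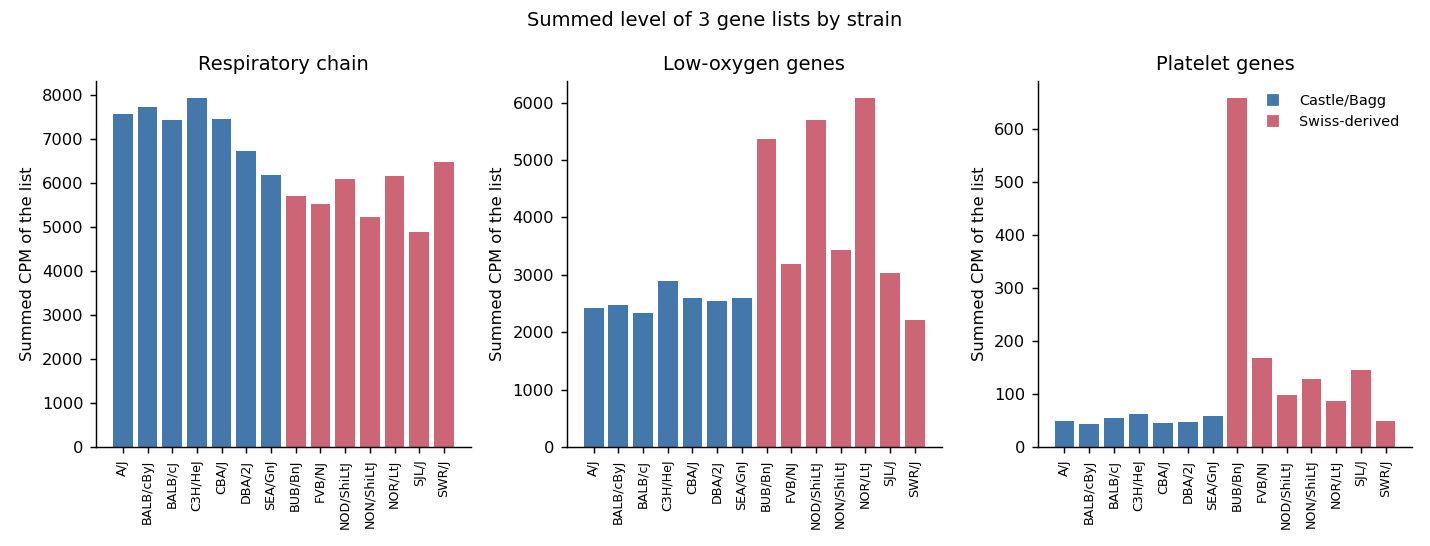
Summed level in CPM (y axis, from 0) of 3 gene lists in each strain (x axis): respiratory chain, low-oxygen genes and platelet genes, blue for Castle/Bagg and red for Swiss-derived. NOR/LtJ has the tallest low-oxygen bar, BUB/BnJ the tallest platelet bar at 657 CPM, and SWR/J is within or below the Castle/Bagg range in both.

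Fat oxidation had 3 of 24 tested genes lower (12.5% against 2.93% of all genes) and none higher, with a median log2 difference of -0.33. The median was -0.09 without BALB/cByJ and -0.08 without BALB/cByJ and NOR/LtJ. The number called was 1 without A/J, BALB/cByJ, BUB/BnJ, FVB/NJ, NOD/ShiLtJ, NON/ShiLtJ or SJL/J, and 0 in edgeR without the ShiLtJ strains. In that last fit 7 of the 24 had an unadjusted p under 0.05, against 2467 of 13164 genes. With all 14 strains DESeq2 called 6 and limma on log2(TPM + 1) called 1. Cpt1a, the gate for fatty acids entering mitochondria in liver, ran from 301 CPM (FVB/NJ) through 461 to 619 CPM (NOR/LtJ) against 715 CPM (BALB/cJ) through 872 to 946 CPM (A/J). No strain crossed over, and the log2 difference was -0.85 ± 0.15 (SE; edgeR adjusted p = 0.0129, and 0.0616 without the ShiLtJ strains). Acadl (-0.51, edgeR adjusted p = 0.0357) and Acot4 (-1.25, edgeR adjusted p = 0.0381) were the other called members, and lost their calls in 9 and 8 of the 14 fits that left out 1 strain. The 23 cholesterol synthesis genes and 15 lipogenesis genes all had negative differences, with medians of -0.63 and -0.66. None was called by edgeR. At an unadjusted p under 0.05 in edgeR there were 6 and 5, against 3120 of all 12910 genes. DESeq2 called 3 and 2, against 1530 of all 12910. These counts are not read as a result about the 2 lists.

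Slc1a4, which carries alanine, serine and cysteine, ran from 11.5 CPM (FVB/NJ) through 39.8 to 57.96 CPM (NOR/LtJ) against 3.23 CPM (BALB/cByJ) through 5.95 to 8.97 CPM (SEA/GnJ). The groups did not overlap, FVB/NJ and SWR/J (11.5 CPM each) lay nearest to the other group, and the log2 difference was 2.57 ± 0.38 (SE; edgeR adjusted p = 0.00571). Apoa4, an apolipoprotein of gut and liver that was picked after its values were seen, ran from 916 CPM (SWR/J) through 6783 to 13391 CPM (BUB/BnJ) against 1117 to 2378 CPM, a log2 difference of 2.08 ± 0.44 (SE; edgeR adjusted p = 0.0223, and 0.0623 without the ShiLtJ strains). SWR/J was below every Castle/Bagg strain, and the other 6 Swiss-derived strains were above all of them. Further rises with no overlap were the endothelial ligand Efnb2 (1.63), the angiotensin-converting enzyme Ace (1.38), Cldn34c1 (2.16), Syne4 (2.19), Tspan32 (1.64) and Rflnb (1.34), in log2 units and with edgeR adjusted p from 0.000657 to 0.0239. Of these, Ace, Syne4 and Rflnb were not called without the ShiLtJ strains (adjusted p = 0.0583, 0.0644 and 0.0641).

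**Figure D4:**
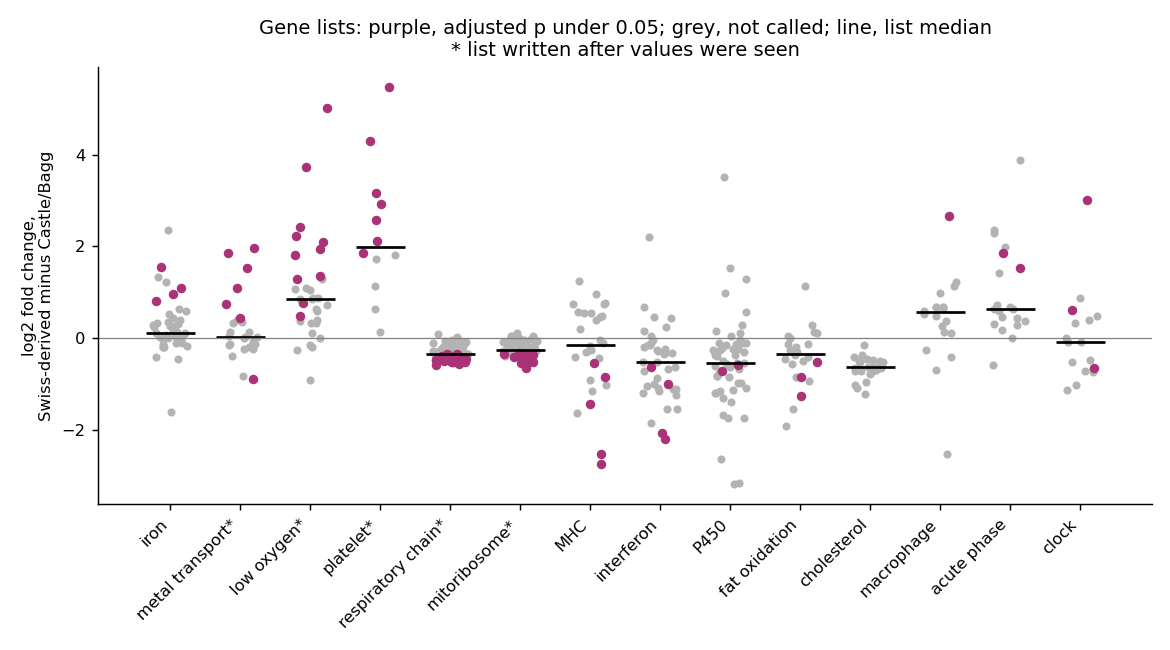
Log2 fold change, Swiss-derived minus Castle/Bagg (y axis), of each tested gene in 14 gene lists (x axis), purple where the edgeR adjusted p was under 0.05, with the list median as a black line. The low-oxygen and platelet lists have medians of 0.85 and 1.99, the respiratory chain list -0.35, and lists marked with an asterisk were written after values had been seen.

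Of 20 platelet genes on a list written after values had been seen, 12 passed the filter on low counts and 7 of these were higher (2.4% of all genes were): Vwf, Itgb3, Mfsd2b, F13a1, Pf4, Thbs1 and Ppbp. A gene of this list could pass the filter through the group in which it was high. The summed list level was 44 to 61 CPM in the Castle/Bagg strains, 48 CPM in SWR/J, 86 to 167 CPM in 5 Swiss-derived strains and 657 CPM in BUB/BnJ. In bulk tissue, more platelets in the sample and more RNA per platelet cannot be told apart, and endothelium makes von Willebrand factor as well. Vwf ran from 16.9 CPM (SWR/J) through 20.8 to 79.3 CPM (BUB/BnJ) against 6.14 to 13.9 CPM, a log2 difference of 1.86 ± 0.35 with no overlap (SE; edgeR adjusted p = 0.0150). Without BUB/BnJ 4 platelet genes were called, without BALB/cByJ 3, and without NOD/ShiLtJ and NON/ShiLtJ 1, Vwf. With all 14 strains, limma called 0 on log2(TPM + 1) and 2 on log2(TPM + 0.1). Mfsd2b, Pf4, Ppbp and Thbs1 lost their calls in 8, 11, 5 and 4 of the 14 fits that left out 1 strain. Thbs1 and Ddit4 are made by several cell types, and the part of platelets in their levels was not tested.

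All 9 endothelial markers had positive differences with a median of 0.55, and Oit3, Fcgr2b and Dnase1l3, genes of the liver sinusoids, were called higher (3 of 9 against 2.4% of all genes), the last without a call when BUB/BnJ or NON/ShiLtJ was left out. None of the 3 was called without the ShiLtJ strains (edgeR adjusted p = 0.0583, 0.0644 and 0.0927). Their summed level was 460 to 732 CPM in the Swiss-derived and 404 to 518 CPM in the Castle/Bagg strains, and its part in the Bmp6 difference was not tested. Of 10 neutrophil markers 2 passed the filter, S100a8 and S100a9, and both were higher (2.4% of all genes were). Their log2 differences were 3.96 ± 0.90 and 3.77 ± 0.80 (SE; edgeR adjusted p = 0.0256 and 0.0223). Their means were 0.559 and 0.807 CPM in the Castle/Bagg and 8.91 and 11.2 CPM in the Swiss-derived strains. They could thus pass the filter through the group in which they were high, and the count of 2 carries no weight. The summed neutrophil level was 49.8 to 100.2 CPM in BUB/BnJ, FVB/NJ, NOD/ShiLtJ, NON/ShiLtJ and SJL/J, 2.05 CPM in NOR/LtJ, 0.334 CPM in SWR/J and 0.808 to 4.63 CPM in the Castle/Bagg strains. NOR/LtJ, with the highest Ddit4, had a neutrophil level inside the Castle/Bagg range. FVB/NJ and NOD/ShiLtJ, with high Ddit4, had 69.2 and 100.2 CPM, and SJL/J, with low Ddit4, had 74.2 CPM. The part of neutrophils in the Ddit4 level was not tested. The S100a8 call was lost without BALB/cByJ, CBA/J or NON/ShiLtJ, and neither gene was called without the ShiLtJ strains (edgeR adjusted p = 0.0968 and 0.0788).

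The scavenger receptor Marco of macrophages ran from 16.4 CPM (SWR/J) through 39.4 to 177 CPM (NOD/ShiLtJ) against 2.76 CPM (SEA/GnJ) through 9.38 to 19.5 CPM (C3H/HeJ), a log2 difference of 2.66 ± 0.50 (SE; edgeR adjusted p = 0.0158). It was the 1 called gene of 20 macrophage markers (5% against 2.4% of all genes), of which 16 had positive differences. Globins and other erythroid genes varied without a call in edgeR: 7 were tested, 3 had an unadjusted p under 0.05, DESeq2 called 1, and their summed level was 18.7 to 1557 CPM in the Swiss-derived and 11.5 to 422 CPM in the Castle/Bagg strains. Of 16 tested fibrosis genes, 2 were higher (12.5% against 2.4% of all genes), the collagen crosslinker Loxl2 (1.15, edgeR adjusted p = 0.0243) and Sparc (0.88, edgeR adjusted p = 0.0403). The cell cycle inhibitor Cdkn1a was higher as well, by 3.05 ± 0.72 (SE; edgeR adjusted p = 0.0292), and lost its call without BALB/cByJ, NOD/ShiLtJ or NON/ShiLtJ (adjusted p up to 0.0614). Loxl2 lost its call without BALB/cByJ, and Sparc in 10 of the 14 fits that left out 1 strain. Cdkn1a, Loxl2 and Sparc had edgeR adjusted p of 0.103, 0.0942 and 0.145 without the ShiLtJ strains.

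By position, the share of called genes ran from 4.25% on chromosome 12 to 6.98% on chromosome 1. Windows of 5 Mb were ranked by their number of called genes, which favours windows with many tested genes. Over all genes 5.33% were called. The most were found on chromosome 17 from 35000001 to 40000000, with 10 of 65 tested genes (15.4%), all 10 lower. Chromosome 15 from 75000001 to 80000000 also had 10, but of 113 (8.85%). The chromosome 2 window from 115000001 to 120000000 had 8 of 38 (21.1%), and was taken over 2 other windows with 8 because of its larger share. The chromosome 17 window holds part of the major histocompatibility complex (MHC), the most polymorphic region of the genome.

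Class I genes of that complex present peptides on most cells, and 5 of 19 tested class I and loading genes were lower in the Swiss-derived strains (26.3% against 2.93% of all genes), none higher, with a median log2 difference of -0.40. Without the ShiLtJ strains 2 were called, H2-T23 and H2-T22. H2-T23 (chr17:36029773-36032855, GRCm38), the nonclassical molecule Qa-1, ran from 13.3 CPM (FVB/NJ) through 27.2 to 43.4 CPM (SJL/J) against 35.2 CPM (A/J) through 221 to 259 CPM (BALB/cByJ). A/J lay with the Swiss-derived strains, and the other 6 Castle/Bagg strains had at least 133.6 CPM. The log2 difference was -2.74 ± 0.36 (SE; edgeR adjusted p = 0.00274). The neighbouring H2-T22 divided the strains in much the same way, at 10.05 to 17.01 CPM in Swiss-derived strains, 16.3 CPM in A/J and 43.2 to 114 CPM in the others (-2.52 ± 0.33, edgeR adjusted p = 0.00274).

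H2-T24 (-1.43), H2-Q4 (-0.85) and the peptide loader Tapbp (-0.54) were also called lower, but lost the call in 6, 5 and 11 of the 14 fits that left out 1 strain. The classical molecules H2-K1 (-0.42 ± 0.36, edgeR adjusted p = 0.510) and H2-D1 (0.21 ± 0.26, edgeR adjusted p = 0.676) overlapped widely. Of 9 tested class II genes none was called by edgeR, 1 had an unadjusted p under 0.05, and DESeq2 called 1. H2-Ea-ps had no counts in NOD/ShiLtJ, NOR/LtJ and SJL/J, which at 3 counts allows up to 0.205 to 0.283 CPM across the 14 libraries. It had at most 0.548 CPM in 6 Swiss-derived strains, 10.3 CPM in NON/ShiLtJ and 2.66 to 7.59 CPM in the Castle/Bagg strains (edgeR adjusted p = 0.342, and 0.00741 without NOD/ShiLtJ and NON/ShiLtJ). These genes have near-identical relatives and strain alleles that differ from the reference transcripts, and how far that moved their estimated counts was not tested.

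The gene with the smallest adjusted p of all lay in the same window. Olfr107, an olfactory receptor gene (chr17:37399226-37407477), ran from 1.25 CPM (NOD/ShiLtJ) through 2.19 to 3.08 CPM (SJL/J) against 9.73 CPM (DBA/2J) through 13.3 to 14.9 CPM (C3H/HeJ). There was a clear gap between the groups, and unlike H2-T23 it placed A/J with the Castle/Bagg strains. The log2 difference was -2.58 ± 0.19 (SE; edgeR adjusted p = 1.49e-05). Related genes and strain alleles that differ from the reference transcripts can move estimated counts here too. How far they did so for Olfr107, or for Olfr646, Olfr1484 and Cldn34c1, was not tested. Further toward the centromere on chromosome 17, Btbd9 was lower (-0.60 ± 0.11, edgeR adjusted p = 0.0143, and 0.0623 without the ShiLtJ strains) with no overlap. Its neighbour Glo1, which detoxifies methylglyoxal, was lower by -1.11 ± 0.30 (edgeR adjusted p = 0.0474), with BALB/cJ at 107 CPM below 6 Swiss-derived strains, and lost its call in 11 of the 14 fits that left out 1 strain and without the ShiLtJ strains (0.128).

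In the chromosome 15 window, the named genes were Apol7a (-1.21), Slc39a4 (-0.88) and the cytokine receptor chain Csf2rb (1.21), and its relative Csf2rb2 was also called. In the chromosome 2 window they were Bmf, which promotes cell death (-2.05), the complex I assembly factor Ndufaf1 (-0.67) and Bahd1 (0.69). These 6 had edgeR adjusted p from 0.014 to 0.0251. Bahd1 lost its call without BALB/cByJ and Ndufaf1 without BUB/BnJ. Apol7a, Slc39a4, Csf2rb, Bmf and Bahd1 were not called without the ShiLtJ strains (edgeR adjusted p = 0.0641, 0.0829, 0.0801, 0.0922 and 0.0727).

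**Figure D5:**
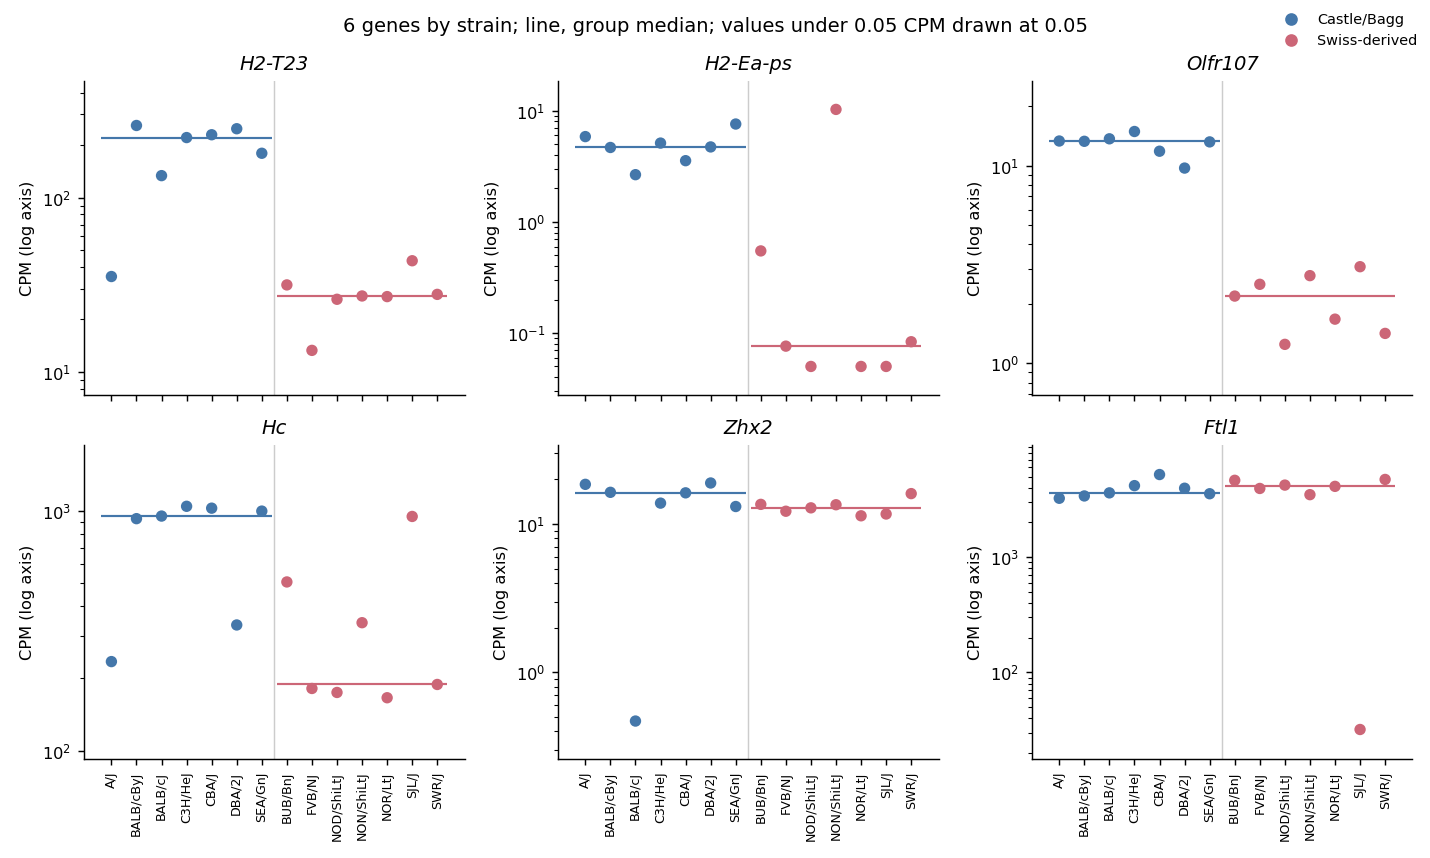
Level in CPM (y axis, log scale, 1 panel per gene) of H2-T23, H2-Ea-ps, Olfr107, Hc, Zhx2 and Ftl1 in each of the 14 strains (x axis), with the group median as a line and values under 0.05 CPM drawn at 0.05. A/J joins the red points for H2-T23 but not for Olfr107, and BALB/cJ for Zhx2 and SJL/J for Ftl1 stand alone.

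After Olfr107, the largest falls among protein-coding genes with no overlap were those of 11 genes. Ces1g, a liver carboxylesterase, ran from 29.6 CPM (NOD/ShiLtJ) through 47.1 to 156.03 CPM (FVB/NJ) against 205 CPM (DBA/2J) through 330.5 to 387.4 CPM (C3H/HeJ). FVB/NJ and SWR/J (127 CPM) were nearest to the Castle/Bagg range, and the log2 difference was -2.19 ± 0.38 (SE; edgeR adjusted p = 0.0104, and 0.0547 without the ShiLtJ strains). All 14 tested carboxylesterases had negative differences, with a median of -0.64, and Ces1g was the 1 called (7.14% against 2.93% of all genes). Hjurp, a chaperone that loads histone at centromeres, ran from 16.7 to 80.4 CPM against 92.7 to 236 CPM (-1.83 ± 0.30, edgeR adjusted p = 0.0092, and 0.0548 without the ShiLtJ strains). Spc24 of the kinetochore (-1.91), Pebp1, an inhibitor of Raf kinase (-1.49), Etnk2, an ethanolamine kinase (-1.46), Ppp1r1b, a phosphatase inhibitor (-1.47), Coq10b of coenzyme Q biology (-1.42), Lingo4 (-1.84), Trim68 (-1.53), Olfr646 (-1.26) and Olfr1484 (-1.34) made up the rest. Trim68 and Olfr1484 lost their calls in 6 and 9 of the 14 fits that left out 1 strain. Pebp1, Lingo4, Trim68, Olfr646 and Olfr1484 were not called without the ShiLtJ strains (edgeR adjusted p = 0.0559, 0.0599, 0.0724, 0.0773 and 0.0998).

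Few detoxification genes were called. Of 53 tested cytochrome P450 genes 44 had negative differences, the median was -0.53, and Cyp2j6 (-0.58) and Cyp3a25 (-0.72) were called lower, a share of 3.77% and near the 2.93% of all genes. Of 45 conjugation enzymes 3 were called, a share of 6.67% and near the 5.33% of all genes: Gstp3 (2.51) and Ugt1a2 (0.76) higher and Gstt2 (-1.12) lower. Gstp3 was high in 3 strains, NON/ShiLtJ (185 CPM), SJL/J (143 CPM) and FVB/NJ (107 CPM), and at most 18.3 CPM in the other 11. Serpina6, the corticosteroid carrier of plasma, was lower by -2.49 ± 0.60 (SE; edgeR adjusted p = 0.0319), at 13.9 to 264 CPM against 162 to 753.6 CPM. Cyp2j6, Cyp3a25, Gstp3, Ugt1a2 and Serpina6 lost their calls in 12, 9, 11, 6 and 8 of the 14 fits that left out 1 strain, and Gstt2 without BALB/cByJ. The first 5 were not called without the ShiLtJ strains either, at edgeR adjusted p from 0.0665 (Ugt1a2) to 0.127 (Cyp3a25).

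Interferon-stimulated genes had a median of -0.53, with 32 of 39 tested negative, and 4 were called lower (10.3% against 2.93% of all genes) and none higher. Ifi27 was lower, at 6.59 to 24.8 CPM against 23.2 to 139 CPM (-2.19 ± 0.41, edgeR adjusted p = 0.0146, and 0.0641 without the ShiLtJ strains). Bst2, Ifi44 and Ifih1 were called lower too, by -0.996, -2.07 and -0.63. The calls of Ifi44 and Ifih1 were lost in 9 and 12 of the 14 fits that left out 1 strain. No gene of the list was called by edgeR without NOD/ShiLtJ and NON/ShiLtJ. In that fit 10 of the 39 had an unadjusted p under 0.05, against 2467 of 13164 genes. Complement (26 tested), the major urinary proteins (10), and male-biased (11) and female-biased (12) liver genes had no called member in edgeR. At an unadjusted p under 0.05 they had 7, 2, 2 and 4 members, and DESeq2 called 1, 1, 0 and 1. Over all 12910 genes these numbers were 3120 and 1530.

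Of 17 tested clock genes 2 were higher and 1 lower, against 2.4% and 2.93% of all genes. Arntl, the activator BMAL1, was 23.1 CPM in NOD/ShiLtJ and 23.6 CPM in NON/ShiLtJ, 1.40 to 4.87 CPM in the other Swiss-derived strains and 0.182 to 2.75 CPM in the Castle/Bagg strains, a log2 difference of 3.01 ± 0.68 (SE; edgeR adjusted p = 0.0251). Dbp, which cycles out of phase with it, was lowest in the same 2 strains, at 3.57 and 7.08 CPM against 27.6 to 149 CPM in the other Swiss-derived strains. Without these 2 strains the adjusted p of Arntl was 0.109, and its call was also lost without BALB/cByJ or without NON/ShiLtJ alone. Clock was higher by 0.62, with its call lost in 10 of the 14 fits that left out 1 strain, and Hlf was lower by -0.66, with its call lost without BALB/cByJ. Both were also missed without the ShiLtJ strains (edgeR adjusted p = 0.159 and 0.0968). The labels give no time of day, and the lineage difference and the sampling time cannot be told apart for genes that cycle.

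Strain-specific levels cut across the lineages at classical loci. Hc, complement component 5, was 166 to 505 CPM in 6 Swiss-derived strains and 948 CPM in SJL/J, while A/J (235 CPM) and DBA/2J (334.2 CPM) were low among Castle/Bagg strains that otherwise had 928 to 1045 CPM. The lineage difference was -1.14 ± 0.46 (SE; edgeR adjusted p = 0.143). Zhx2, a repressor in adult liver, was 0.469 CPM in BALB/cJ and 11.4 to 18.9 CPM in the other 13 strains, BALB/cByJ included. Afp, the fetal albumin relative that it represses, was 227 CPM in BALB/cJ and at most 5.84 CPM elsewhere.

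Each lineage was also compared with the other inbred strains of the panel. The panel held 18 further inbred libraries of 17 strains, which became 17 after the 2 of 129X1/SvJ were summed, and both lineages were set against them in 1 fit, a comparison chosen after seeing the data. Castle/Bagg strains differed from them in 1.49% of 13918 genes, of which 92 were lower and the rest higher, with 2633 genes at an unadjusted p under 0.05. Swiss-derived strains differed in 3 genes (0.0216%), 2 higher and 1 lower, with 821 at an unadjusted p under 0.05. Both comparisons share those 17 libraries, and the difference between the 2 counts was not tested. The median of the other inbred strains was nearer to the Swiss-derived median for 16 of the 24 genes named for the largest differences without overlap. Those 24, which include every gene of the next paragraph but H2-T23, were picked by their values in the same Swiss-derived and Castle/Bagg libraries. This count and the adjusted p of those genes below are therefore not independent of that choice.

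For Ndufa4l2, the log2 difference from the other inbred strains was -4.75 in Castle/Bagg (edgeR adjusted p = 0.0103) and 0.28 in Swiss-derived strains (adjusted p = 0.993). For Slc30a10 the pair was -1.48 (adjusted p = 0.0117) and 0.50 (adjusted p = 0.870), and for Hmox1 it was -1.41 (adjusted p = 0.0366) and 0.14 (adjusted p = 0.993). For Olfr107 it was 1.76 (adjusted p = 0.0239) and -0.82 (adjusted p = 0.875). Cldn34c1 had the reverse pattern, -0.52 (adjusted p = 0.289) and 1.64 (adjusted p = 0.00139), and H2-T23 leaned the same way with 0.58 (adjusted p = 0.432) and -2.15 (adjusted p = 0.106) and no call. The other inbred libraries themselves spanned 0.504 to 69.1 CPM for Ndufa4l2, so that both low and high strains occurred outside the 2 lineages.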

How the data were processed

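Liver mRNA of 14 male mice, 1 per strain, was compared within the table of the whole panel. The authors deposited expected counts per Ensembl gene, unnormalized as judged from the values, and TPM for the same genes. The submitters' processing notes name kallisto 0.46 and mm10. The counts were rounded to whole numbers, although the design had assumed whole counts. Of 35711 gene IDs, 35691 matched GENCODE M21 (GRCm38), whose symbols and 1-based coordinates are used.

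Genes were tested with edgeR 4.0.16 (TMM factors, filterByExpr, quasi-likelihood F test, 7 against 7, no covariate) in R 4.3.3, adjusted by Benjamini-Hochberg over all tested genes and called at an adjusted p under 0.05. CPM values use TMM factors, each SE is that of the log2 difference, and all tests were two-sided. Alternatives used RLE factors, other filters, DESeq2 1.42.0, limma 3.58.1 on log2(TPM + 1) or log2(TPM + 0.1), the whole panel, or fewer strains. On simulated counts of 12768 genes the test recovered 67.4% of genes changed 2-fold and 97.9% of those changed 4-fold, with 6.47% of its calls false. The simulated libraries were drawn independently of each other, without related strains, so these shares need not hold for the real strains.

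The strains, gene lists and tests were chosen with earlier results of these data known. Named were the iron, MHC and strain-variant genes, the 12 largest rises and 12 largest falls among called protein-coding genes at 1 CPM or more whose groups did not overlap, up to 4 called genes of each other list, and up to 3 in each of the 3 windows of 5 Mb with most calls. Others, including those of 5 lists (low oxygen, platelet, respiratory chain, mitochondrial ribosome, metals), were picked after their values were seen. Results on marker lists not described in detail were: cholangiocytes 0 of 4 tested genes called, lymphocytes 0 of 5, adipocytes 0 of 1, exocrine pancreas 0 of 1, and Y-linked genes 0 of 4, where edgeR and an unadjusted p under 0.05 gave 1 lymphocyte gene and 0 of the others, and DESeq2 called the same numbers.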

Additional observations from a re-analysis of the deposited data

Results flagged for a closer look

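The values in this section stood far from the other strains of their lineage by a gap test of 7 values (critical ratio 0.568). It was run on log2(CPM + 0.1) of 127 genes in each lineage and picked out 26 values, and chance alone picks out about 1 group in 20. Every comparison is with the strains of the same lineage.

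Several concern iron genes. Hmox1 in NOD/ShiLtJ was 222 CPM against 53.6 to 72.8 CPM in the other Swiss-derived strains, and Hjv in FVB/NJ was 38.2 CPM against 61.3 to 73.1 CPM. Hamp in DBA/2J was 237 CPM against 717 to 1101 CPM in the other Castle/Bagg strains, and Atoh8, another gene of the hepcidin pathway, was 8.50 CPM in the same mouse against 28.5 to 48.995 CPM. In CBA/J, Slc11a2 was 11.7 CPM and Slc39a14 328 CPM, both lowest in their group. Cp, the plasma ferroxidase, was lowest in BALB/cByJ at 1535 CPM. Fth1 was highest in BALB/cJ at 1359 CPM, and Slc30a10 was lowest there at 3.36 CPM. Cd163, the macrophage receptor for haptoglobin and hemoglobin, was 4.84 CPM in SWR/J against 44.01 to 94.3 CPM in the other Swiss-derived strains.

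Ftl1 in SJL/J was 31.9 CPM against 3483 to 4721 CPM in the other Swiss-derived strains. Ftl1-ps1, annotated on chromosome 13 as a copy of the ferritin light chain gene, had 2751 CPM in that mouse and 18.2 to 45.4 CPM in the other 13 strains. The sum of both was 2783 CPM in SJL/J and 3262 to 5237 CPM in the others. The same exchange, with Ftl1 under 100 CPM and Ftl1-ps1 over 1000 CPM, was present in 4 of 18 other inbred libraries of the panel.

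In the MHC, H2-T23 was 13.3 CPM in FVB/NJ and 35.2 CPM in A/J, H2-Ea-ps was 10.3 CPM in NON/ShiLtJ, and Tapbp was 105 CPM in SJL/J. The class I light chain B2m, a gene outside that complex, was 366 CPM in FVB/NJ. In BALB/cJ, Zhx2 was 0.469 CPM, Afp 227 CPM and the clock gene Per2 32.4 CPM. The others were Cycs in A/J (62.6 CPM), Lingo4 in NON/ShiLtJ (0.590 CPM), Ndrg1 in NOD/ShiLtJ (84.3 CPM), Bmf and Csf2rb in SWR/J (6.42 and 10.1 CPM), Bahd1 in BUB/BnJ (27.5 CPM) and Cyp2j6 in CBA/J (73.0 CPM).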

How the results depend on the processing

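The share of tested genes called, 5.33% (688 genes), was 5.38% with RLE factors, 1.92% (459 genes) without a filter, 6.09% with at least 10 counts in every library, 11.9% (1530 genes) with DESeq2, 0.72% and 0.813% (93 and 105 genes) with limma on log2(TPM + 1) and log2(TPM + 0.1), and 9.81% (1540 genes) in the fit of the whole panel. It was 1.33% without BALB/cByJ and NOR/LtJ, 0.284% (38 genes) without NOD/ShiLtJ, NON/ShiLtJ and NOR/LtJ, and 0.418% (55 genes, 52 of them among the 688) without NOD/ShiLtJ and NON/ShiLtJ, the last chosen after seeing the data. Leaving out 1 strain gave 1.75% (BALB/cByJ) to 11.1% (SWR/J). Called genes of the gene lists other than the 5 written after values were seen, 41 in all, numbered 101 with DESeq2, 9 and 10 with limma, 80 in the panel fit, 17, 3 and 5 without those 2, 3 or 2 strains, and 16 to 100 with 1 strain left out. The 10 called genes of the chromosome 17 window became 5 and 5 with limma, 5, 1 and 3 without those strains, and 6 to 13 with 1 strain left out. The share of calls that were higher, 45.1%, was 57.9% without the 3 strains. The cause of these shifts was not tested. Of 89 named and called genes none reversed in the 24 alternatives, 49 were called with every strain left out in turn, and 4 (Olfr107, Etnk2, Ndufa4l2, Cldn34c1) in each alternative that tested them. Every library held over 10 M counts, and the number of strains, 7 a group, limits the precision. No paired analysis was possible because the labels carry no replicate numbers and each strain is 1 mouse.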
